A study of Rattus norvegicus with 24 samples.

Results

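Voltage-gated sodium and calcium channels, the hyperpolarization-activated HCN channels and the TRP cation channels were examined across 4 structures of the rat brain and pituitary. The set was made by symbol: every gene whose single symbol in the array annotation belongs to the sodium channel (Scn), calcium channel (Cacna, Cacnb, Cacng), Hcn or Trp (a, c, m and v) series was taken, each as its probe set with the highest mean log2 intensity over the 24 arrays. This gave 54 genes of the 14217 genes that a single-symbol probe set names. They were 9 sodium channel α subunits, 3 sodium channel β subunits, 10 calcium channel α1 subunits, 2 α2δ subunits, 4 calcium channel β subunits, 8 calcium channel γ subunits and their TARP relatives, 3 HCN channels, 5 TRPC, 5 TRPM and 5 TRPV channels. No TRPA gene met the rule.

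The study set out to compare brain structures of the spontaneously hypertensive rat (SHR), an inbred strain with high blood pressure, and the normotensive Wistar-Kyoto rat (WKY). The structures from SHR were the neurointermediate lobe of the pituitary (NIL, 5 arrays), the paraventricular nucleus (PVN, 5 arrays) and supraoptic nucleus (SON, 4 arrays) of the hypothalamus, and the rostral ventrolateral medulla (RVLM, 5 arrays); from WKY, 5 RVLM arrays were analysed. All rats were male, aged 10 to 13 weeks (10 to 12 weeks for NIL array 2), with no treatment named, and each array carried RNA from a pool of 5 rats of 1 strain, so the spread between arrays is a spread between pools. The labels do not say whether 1 rat gave several structures.

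Sodium channel α subunits form the pore that carries the rising phase of the action potential, and the β subunits are membrane-spanning partners that set its kinetics and its place in the cell. Calcium channel α1 subunits form the calcium pore, while α2δ and β subunits bring it to the membrane, and most TARPs traffic AMPA glutamate receptors. HCN channels carry a depolarizing current at rest and TRP channels are cation channels gated by lipids, heat, stretch or calcium. Magnocellular neurons of the PVN and SON fire in bursts and release vasopressin and oxytocin from endings in the neural lobe, part of the NIL. The NIL also holds melanotrophs and pituicytes, and the RVLM holds neurons that drive sympathetic outflow.

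Several of these genes lie side by side in the genome. Promoters of 4 are shown, because Scn7a and Scn4b carried the largest differences between structures among the chosen probe sets that were tested, while Scn2a and Scn2b, from the same clusters, differed in the other direction. In the rat assembly GRCr8, Scn3a and Scn2a are adjacent on chromosome 3, as are Scn1a, Scn9a and Scn7a, with 4 other protein-coding genes between Scn2a and Scn1a. Scn2b and Scn4b are adjacent on chromosome 8, and 5 protein-coding genes separate Cacna2d3 from Cacna1d on chromosome 16. RefSeq promoters were matched for 41 of the 54 genes, and the 250 bases before the annotated start are given 5′ to 3′ on the strand of the gene. The windows are chr3:70710706-70710955 on the plus strand for Scn2a, chr3:71846285-71846534 on the minus strand for Scn7a, chr8:54322133-54322382 on the plus strand for Scn2b and chr8:54343623-54343872 on the plus strand for Scn4b.
Scn2a: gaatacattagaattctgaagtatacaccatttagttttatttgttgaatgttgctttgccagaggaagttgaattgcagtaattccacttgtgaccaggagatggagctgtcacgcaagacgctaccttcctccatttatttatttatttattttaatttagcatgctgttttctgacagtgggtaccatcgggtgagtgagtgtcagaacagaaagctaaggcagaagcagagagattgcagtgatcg
Scn7a: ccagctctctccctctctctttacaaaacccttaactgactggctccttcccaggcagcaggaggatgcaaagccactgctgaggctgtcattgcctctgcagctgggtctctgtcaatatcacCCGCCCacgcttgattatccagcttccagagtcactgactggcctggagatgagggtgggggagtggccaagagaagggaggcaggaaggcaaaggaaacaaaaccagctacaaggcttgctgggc
Scn2b: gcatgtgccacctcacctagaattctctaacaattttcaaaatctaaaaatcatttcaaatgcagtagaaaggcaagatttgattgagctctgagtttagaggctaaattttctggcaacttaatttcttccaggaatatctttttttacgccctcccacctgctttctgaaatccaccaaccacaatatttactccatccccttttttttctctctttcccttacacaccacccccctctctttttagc
Scn4b: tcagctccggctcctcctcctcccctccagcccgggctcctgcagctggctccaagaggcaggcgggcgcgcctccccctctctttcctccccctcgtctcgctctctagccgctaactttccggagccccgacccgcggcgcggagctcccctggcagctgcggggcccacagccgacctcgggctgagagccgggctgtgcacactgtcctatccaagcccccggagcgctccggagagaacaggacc
Capitals mark the match in Scn7a to the GC box letters GGGCGG, here read as their reverse complement. Both strands were searched for these letters, which 30.5% of 33469 promoters of this length held. The same search covered TATAAA, the letters of a TATA box, found in 12.9% of all promoters, and CCAAT, found in 34.0%, and neither was in the 4 windows. The neighbours Scn2b and Scn4b differed in base composition, with 38.8% G or C and 1 CG pair before Scn2b against 71.6% and 21 pairs before Scn4b; over all promoters the medians were 51.2% and 5 pairs. Scn2a had 39.6% G or C and 4 CG pairs, and Scn7a 56.0% and 2. These letters describe the windows and were not tested against the expression values.

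The values were deposited intensities on a linear scale, with a 2% trimmed mean near 100 on every array and array medians between 35.9 and 46.5. Single marker genes followed the labelled structures. Avp, encoding vasopressin, read 3893 to 5284 in the PVN and 4592 to 5610 in the SON. It read 1056 to 1419 in the NIL and 13.5 to 22.0 in SHR RVLM. Pnmt, the adrenaline-synthesizing enzyme, read 113 to 251 in SHR RVLM and at most 16.5 in the other SHR structures. The list of 4 adrenergic neuron markers did not set the RVLM apart. Of the 2 tested with limma, Th was lower in the RVLM than in the mean of PVN and SON. Ddc was not called, and the median log2 difference of the 2 was −0.67. Pomc, the melanotroph prohormone, read 611 to 1243 in the NIL and at most 16.2 elsewhere in SHR. PVN array 3 stood apart, with a mean Spearman correlation of 0.912 with the other PVN arrays and summed intensities of 7 meningeal and choroid plexus markers of 8528 against 674 to 957 on the other 4 PVN arrays. Its 7 oligodendrocyte markers summed to 10265 against 3856 to 4882. In the NIL, 7 anterior pituitary markers summed to between 2947 and 16733, against at most 238 in the other SHR structures.

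A probe set's intensity ranks the arrays for 1 gene and does not rank genes. With that limit, 15 of the 54 genes read above the array's own median on all 24 arrays (Scn2a, Scn3a, Scn7a, Scn9a, Scn2b, Scn3b, Cacna2d1, Cacnb2, Cacnb3, Cacng2, Hcn2, Trpc1, Trpm3, Trpm7 and Trpv5), and 21 read above it on none. The second group included Scn8a, which encodes a sodium channel of nodes and initial segments and read at most 22.6 on any array, Hcn4 (at most 3.52) and Trpm8, the cold and menthol receptor (at most 4.69). Probe sets with a mean in the lowest 40% of the arrays compared were not tested, which left 28 of the 54 genes in the comparisons between SHR structures and 31 in the comparison of strains, and 32 in at least 1 of them. A gene could pass through the structure in which it was high, so the tested genes are not a sample of all 54.

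**Figure D1:**
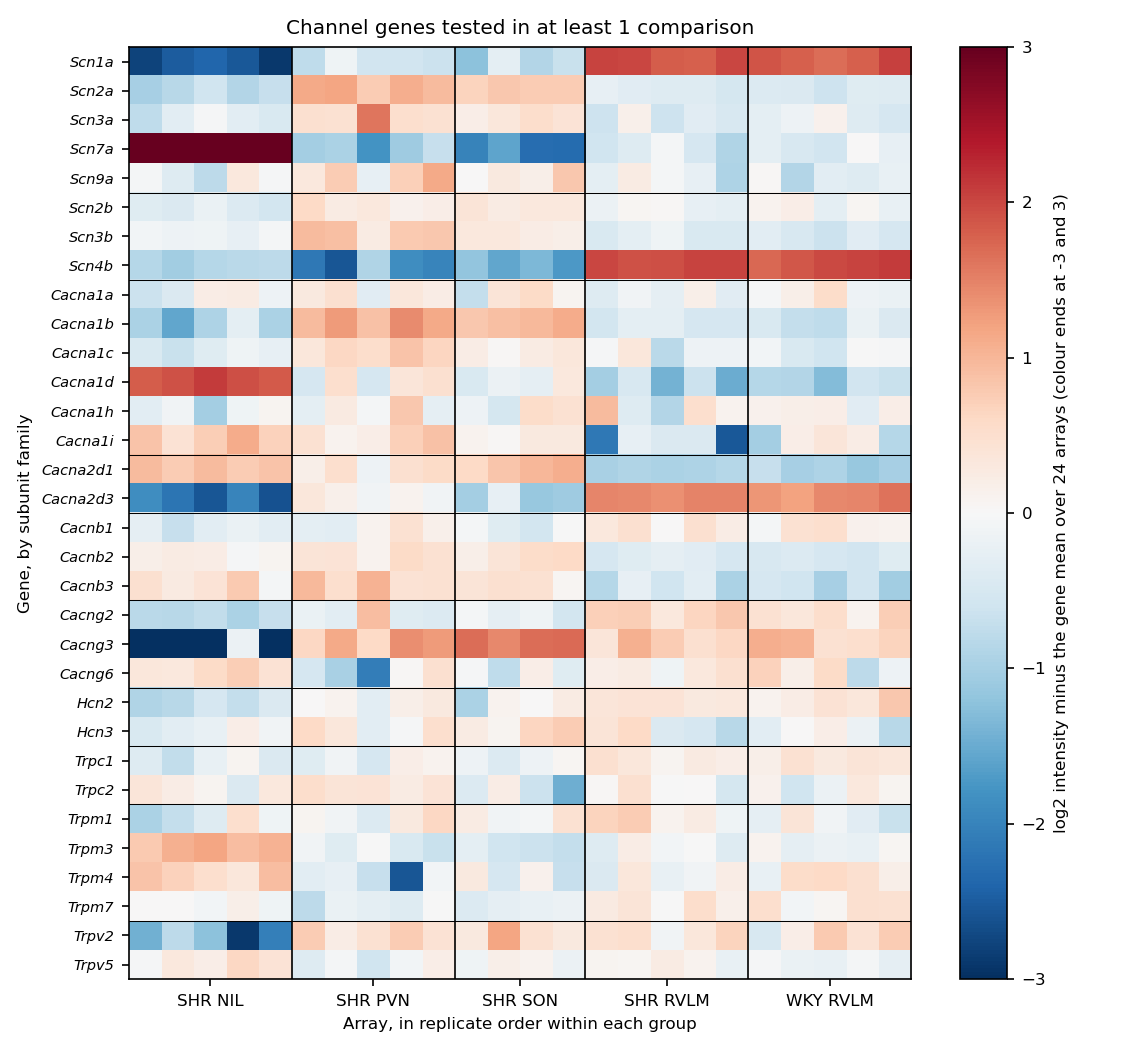
Heat map of the 32 channel genes tested in at least 1 comparison (rows, by subunit family) on the 24 arrays (columns, by group); colour is the log2 of the deposited intensity minus the gene's mean over all arrays. Scn7a and Cacna1d are high on the 5 NIL arrays, Scn1a, Scn4b and Cacna2d3 on the 10 RVLM arrays of both strains, and Scn3a and Cacng2 are highest among the PVN arrays on array 3.

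The NIL differed from the hypothalamic nuclei in sodium channel α subunits in both directions. Scn7a, a sodium-channel relative that voltage does not open and that is known as a sensor of extracellular sodium in glia, was 34.0 times as high in the NIL as in the PVN and SON together. Scn1a, Scn2a, Scn3a and Scn9a were all lower there. Comparisons with the hypothalamus were made against the mean of the PVN and SON group means on the log2 scale, with limma and Benjamini-Hochberg adjustment over all 18625 probe sets tested. By that test, 20 of the 28 channel genes were called at an adjusted p under 0.05, 6 higher and 14 lower, where 58.9% of the 10596 genes tested were called, 30.8% higher and 28.1% lower. The median log2 difference of the 28 was −0.39, and of all genes 0.03.

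In the RVLM, 22 of the 28 tested genes were called against the mean of PVN and SON, 10 higher and 12 lower, where 50.6% of all genes tested were called, 21.4% higher and 29.2% lower. The median of the 28 was −0.18 and of all genes −0.08. Between PVN and SON, 5 of 28 were called, 4 higher in the PVN (Trpc2, Cacna2d3, Scn7a and Scn3b) and Cacna2d1 lower, where 16.1% of all genes tested were called, 9.02% higher and 7.12% lower. Without PVN array 3, 7 of 29 were called, where 23.0% of all genes were, with Scn2a (0.34, limma adjusted p = 0.037) and Scn4b added.

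Scn7a read 2463, 2790, 2682, 2366 and 2880 on the NIL arrays. The PVN arrays read 111, 118, 65.0, 108 and 141, and the SON arrays 56.3, 75.5, 46.5 and 45.6. Every NIL array lay far above every hypothalamic array, and the log2 difference was 5.09 (SE 0.156, limma adjusted p = 3.2e-17). In the medulla Scn7a read 148, 174, 218, 159 and 121 in SHR, which overlapped the PVN arrays and lay above the SON arrays; against the mean of PVN and SON it was higher by 1.15 (SE 0.156, limma adjusted p = 3.0e-06). Within the hypothalamus it was higher in the PVN than in the SON by 0.97 (SE 0.187, limma adjusted p = 0.0016), and by 1.13 (limma adjusted p = 2.1e-05) without PVN array 3, the single PVN array that fell inside the SON range.

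Scn1a, which encodes a channel of fast-firing neurons, was lowest in the NIL and highest in the RVLM. It read 39.5, 48.1, 51.4, 46.4 and 36.4 in the NIL and 1099, 1079, 943, 927 and 1074 in SHR RVLM. The PVN read 160, 245, 182, 180 and 173, and the SON 115, 219, 147 and 171. The NIL, the hypothalamic nuclei and the RVLM thus formed 3 ranges that did not overlap, while PVN and SON overlapped and did not pass the test (0.26, SE 0.157, limma adjusted p = 0.29). The NIL was lower than the hypothalamus by −1.99 (SE 0.131, limma adjusted p = 1.6e-11) and the RVLM higher by 2.64 (SE 0.131, limma adjusted p = 9.9e-13), a 6.23-fold difference. WKY RVLM arrays, which took no part in that fit, read 1001, 933, 860, 935 and 1122.

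Scn2a, a channel of initial segments and unmyelinated axons, was lower than in the hypothalamus in both other structures. On the PVN arrays it read 357, 368, 279, 346 and 317 and on the SON arrays 260, 288, 279 and 277. The NIL read 81.4, 91.4, 108, 88.3 and 101, and SHR RVLM 137, 130, 125, 124 and 114. No array of either structure reached the hypothalamic range, and the log2 differences were −1.72 in the NIL (SE 0.0947, limma adjusted p = 6.9e-13) and −1.20 in the RVLM (SE 0.0947, limma adjusted p = 1.1e-09). The neighbour Scn3a, best known from the embryonic nervous system, was lower by −0.94 in the NIL and −0.85 in the RVLM (limma adjusted p = 0.00012 and 0.00045), and by −0.82 and −0.73 without PVN array 3, where it read 249 against 113 to 117 on the other PVN arrays.

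Scn9a, which encodes the channel of pain-sensing nerve fibres and of hypothalamic neurosecretory neurons, varied widely between arrays, from 157 to 412 in the PVN and 188 to 326 in the SON. It was lower in the NIL by −0.64 (SE 0.191, limma adjusted p = 0.0065) and in the RVLM by −0.62 (SE 0.191, limma adjusted p = 0.010), with overlapping ranges in both. Without RVLM array 5, which read 98.3, the RVLM difference was −0.47 and its adjusted p 0.051. Scn4a, Scn8a, Scn10a and Scn11a were under the filter. The comparisons of NIL and RVLM share the PVN and SON arrays, so the same direction in both is partly the same measurement.

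The 3 sodium channel β subunits were all tested. Scn4b, the subunit that takes part in resurgent sodium current, was high in the RVLM. Scn4b read 863, 819, 833, 885 and 882 in SHR RVLM and 119, 105, 120, 123 and 125 in the NIL. The SON read 95.7, 73.8, 84.8 and 65.5. The PVN read 49.0, 36.5, 117, 59.6 and 55.4, where array 3 lay above the whole SON range and the other 4 below it. The RVLM stood clear of all others, 13.2 times the mean of the hypothalamic nuclei (log2 difference 3.72, SE 0.178, limma adjusted p = 5.9e-13), and the NIL was higher by 0.77 (SE 0.178, limma adjusted p = 0.00087). PVN and SON differed by −0.41 (limma adjusted p = 0.22), and by −0.67 (limma adjusted p = 0.00096) without PVN array 3.

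Scn2b, next to Scn4b on chromosome 8, was lower in the RVLM. It read 901, 703, 747, 654 and 689 in the PVN, 785, 710, 739 and 743 in the SON, and 531, 619, 608, 501 and 484 in SHR RVLM. All RVLM arrays lay below all hypothalamic arrays, by −0.37 on the log2 scale (SE 0.110, limma adjusted p = 0.0076). The NIL, at 407 to 524, was lower by −0.72 (SE 0.110, limma adjusted p = 7.2e-06).

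Scn3b separated the 2 hypothalamic nuclei. Its PVN arrays read 958, 917, 588, 856 and 860 and its SON arrays 609, 614, 579 and 560. Array 3 fell within the SON range and the other 4 PVN arrays above it; the difference was 0.51 (SE 0.129, limma adjusted p = 0.011) and 0.62 (limma adjusted p = 0.00050) without array 3. Scn3b was lower in the NIL (413 to 472, −0.66, SE 0.108) and in the RVLM (357 to 452, −0.79, SE 0.108), with limma adjusted p = 1.9e-05 and 2.9e-06. A second Scn3b probe set gave 0.56, −0.56 and −0.62 in the same 3 comparisons.

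**Figure D2:**
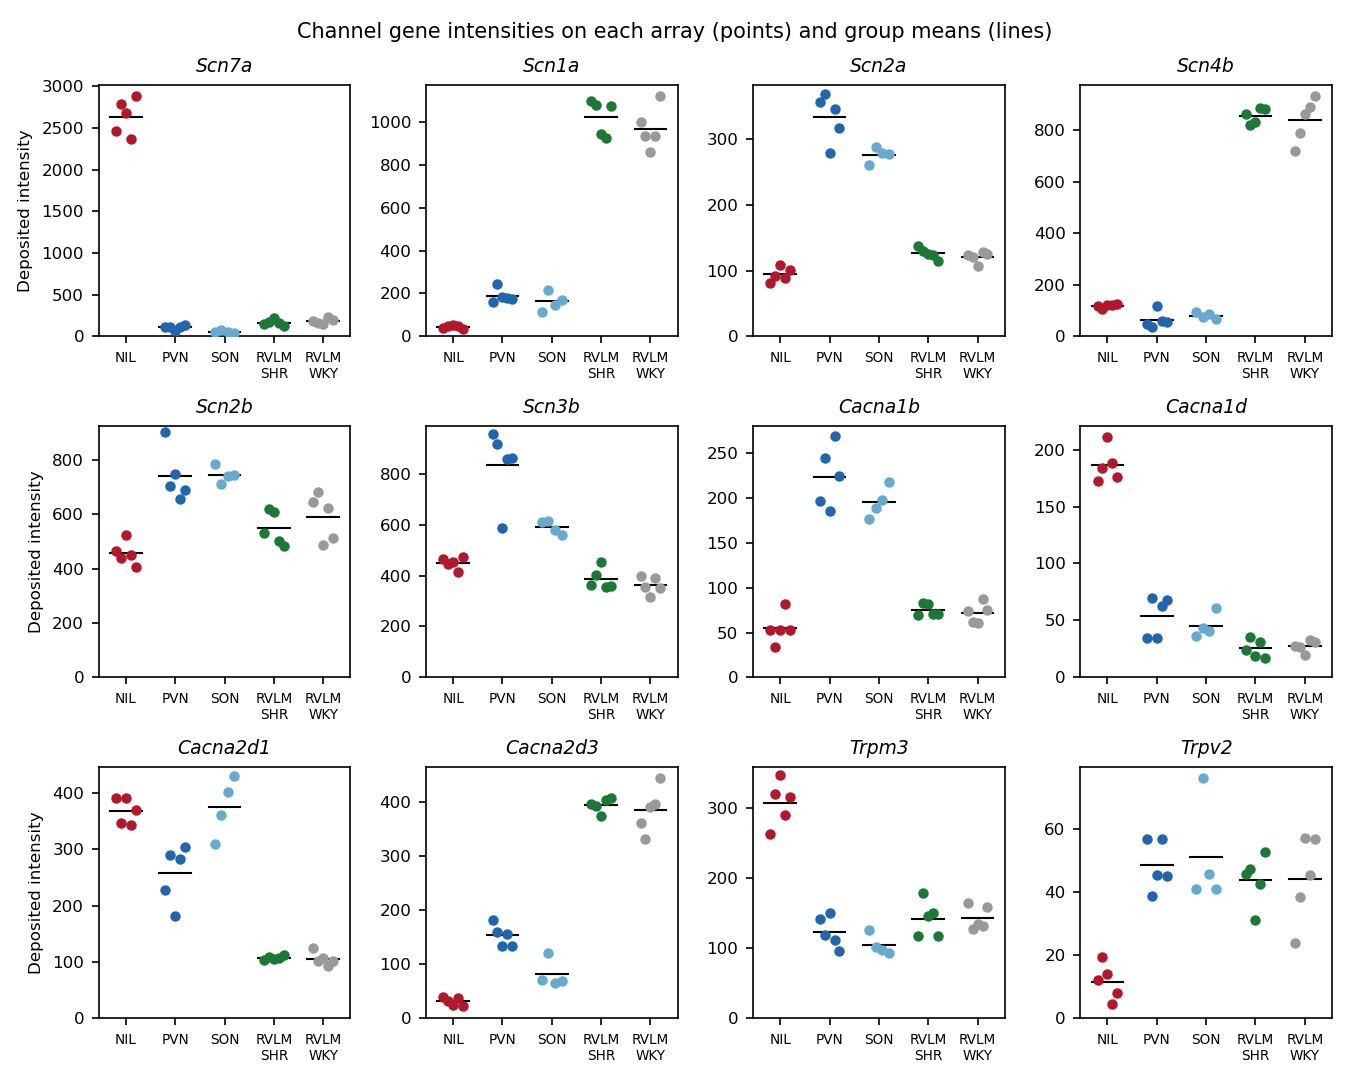
Deposited intensity (linear axes from 0) of 12 channel genes on every array (points, by group) with the group mean (line). Scn7a lies between 2366 and 2880 in the NIL and at most at 227 in the other groups, and Scn1a, Scn4b and Cacna2d3 are highest in the RVLM of both strains.

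Among calcium channel α1 subunits, the NIL was high in Cacna1d and low in Cacna1b and Cacna1c, and the RVLM was low in all 4 that were called. Cacna1d encodes an L-type channel that opens at fairly negative voltages in pacemaking and endocrine cells. It read 173, 184, 211, 189 and 176 in the NIL, 34.8, 69.5, 35.0, 63.0 and 68.3 in the PVN and 35.9, 43.3, 40.6 and 61.1 in the SON. All NIL arrays were above all others, by 1.93 (SE 0.178, limma adjusted p = 4.6e-09), whereas the RVLM, at 17.4 to 35.2, was lower by −0.91 (SE 0.178, limma adjusted p = 0.00023). These RVLM readings overlapped the PVN and lay below the array medians, so the size of the RVLM difference is not settled.

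Cacna1b, the pore of the presynaptic N-type channel, read 196, 245, 186, 269 and 225 in the PVN and 177, 189, 197 and 218 in the SON. Readings were 52.3, 34.3, 53.4, 82.4 and 52.7 in the NIL and 69.7, 82.9, 82.2, 71.1 and 71.2 in SHR RVLM. Both stayed below every hypothalamic array, 4.00-fold lower in the NIL (SE 0.131 on the log2 scale, limma adjusted p = 1.4e-11) and lower by −1.40 in the RVLM (SE 0.131, limma adjusted p = 1.4e-08). Cacna1c, the L-type pore of heart and brain, was lower by −0.80 in the NIL and −0.50 in the RVLM (limma adjusted p = 2.6e-05 and 0.0037).

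Cacna1i, a T-type channel that opens near rest, read 28.7 to 49.2 in the PVN, 27.3 to 32.7 in the SON and 4.61 to 22.6 in SHR RVLM, lower in the RVLM by −1.42 (SE 0.301, limma adjusted p = 0.00048). These RVLM readings lay below the array medians, so the size is not settled. The NIL difference of Cacna1i was 0.41 (SE 0.301, limma adjusted p = 0.25). Cacna1a, the P/Q-type pore of fast synapses, was called in none of these comparisons, with differences of 0.16 between PVN and SON, −0.32 in the NIL and −0.26 in the RVLM and SEs from 0.203 to 0.243. Without SON array 1 it was called lower in the NIL (−0.44, limma adjusted p = 0.044). A second Cacna1a probe set, under the filter here, averaged 9.81 in the NIL, 36.3 in the PVN, 40.8 in the SON and 27.8 in SHR RVLM. The other 5 α1 genes, Cacna1e, Cacna1f, Cacna1g, Cacna1h and Cacna1s, were under the filter.

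The 2 α2δ subunits had different orders across the structures. Cacna2d3 read 395, 392, 374, 404 and 407 in SHR RVLM and 39.7, 31.4, 24.3, 36.7 and 23.7 in the NIL. The PVN read 182, 160, 134, 156 and 134, and the SON 71.3, 121, 65.5 and 68.4. The 4 structures did not overlap. The RVLM was higher than the hypothalamus by 1.91 (SE 0.156, limma adjusted p = 1.8e-09), the NIL lower by −1.87 (SE 0.156, limma adjusted p = 8.4e-10), and the PVN higher than the SON by 0.98 (SE 0.187, limma adjusted p = 0.0016). All NIL readings of Cacna2d3 lay below the array medians, so the size of the NIL difference is not settled.

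Cacna2d1, a binding site of gabapentin, was lowest in the RVLM instead. It read 103, 109, 105, 107 and 112 in SHR RVLM, 228, 290, 182, 283 and 304 in the PVN and 309, 360, 402 and 430 in the SON. The RVLM was lower than both nuclei, by −1.45 (SE 0.102, limma adjusted p = 1.8e-10), and the PVN lower than the SON by −0.53 (SE 0.122, limma adjusted p = 0.0058). Its NIL arrays, at 343 to 391, lay above the PVN and inside the SON range and were not called against their mean (0.23, limma adjusted p = 0.055). That difference was called, with an adjusted p of 0.034 to 0.044, under 4 alternatives (values as deposited, quantile normalization, the pseudocount and all 24 arrays) and without NIL array 4, PVN array 2 or 5, or SON array 4. Cacna1d and Cacna2d3, which lie near each other on chromosome 16, differed in opposite directions in the NIL and again in the RVLM. In each case the lower gene, Cacna2d3 in the NIL and Cacna1d in the RVLM, read below the array medians.

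Calcium channel β subunits bind the α1 pore from inside the cell. Cacnb3 was lower in the RVLM, at 47.4 to 77.8 against 96.0 to 191 in the PVN and SON (−1.05, SE 0.164, limma adjusted p = 1.9e-05), and its NIL difference was −0.17 (limma adjusted p = 0.41). Cacnb2 was lower in the RVLM by −0.74 (limma adjusted p = 2.1e-06) and in the NIL by −0.30 (limma adjusted p = 0.013). The NIL call was lost without NIL array 4 (−0.23, limma adjusted p = 0.056) and with the mean of both probe sets of the gene (−0.10, limma adjusted p = 0.37).

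Cacnb1 has no settled direction. Its chosen probe set was higher in the RVLM by 0.48 (SE 0.135, limma adjusted p = 0.0052), but a second probe set was lower by −1.75 (SE 0.239, limma adjusted p = 3.2e-06), and the mean of both gave −0.63 (limma adjusted p = 0.0012). In the NIL the 2 probe sets gave −0.27 (limma adjusted p = 0.095) and −1.60 (limma adjusted p = 6.4e-06). Cacnb4 was under the filter.

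Cacng2, or stargazin, the TARP that carries AMPA receptors to synapses, was lower in the NIL and higher in the RVLM. The NIL read 57.5, 56.8, 60.2, 52.4 and 62.8 and SHR RVLM 165, 167, 125, 158 and 176. The PVN read 87.4, 81.6, 192, 78.9 and 76.3, with array 3 above the RVLM range, and the SON 97.2, 84.0, 91.8 and 69.0. The differences were −0.67 in the NIL (SE 0.183, limma adjusted p = 0.0036) and 0.86 in the RVLM (SE 0.183, limma adjusted p = 0.00049), and −0.54 and 1.00 without PVN array 3.

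A second Cacng2 probe set averaged 11.1 in the NIL, 180 in the PVN, 128 in the SON and 160 in SHR RVLM. It gave −4.08 in the NIL (SE 0.259, limma adjusted p = 8.4e-12) and 0.13 in the RVLM (limma adjusted p = 0.69), so the size of the first difference and the call of the second depend on the probe set. The other 7 genes of this family were under the filter. Of these, Cacng3, also a TARP, read 40.6 to 69.7 in the PVN, 72.9 to 87.1 in the SON, 34.1 to 55.8 in SHR RVLM and 1.14, 1.35, 0.881, 23.5 and 1.12 in the NIL. The NIL readings lay below all others, near the bottom of the scale on 4 of 5 arrays, so no size is given.

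Of the 3 HCN channels, which support pacemaking, 2 were tested. Hcn2 read 134, 137, 139, 128 and 130 in SHR RVLM, above all PVN arrays (83.9 to 127) and SON arrays (54.0 to 124), and was higher there by 0.47 (SE 0.146, limma adjusted p = 0.010). In the NIL it was lower by −0.66 (55.5 to 76.6, SE 0.146, limma adjusted p = 0.00055). Hcn3 was lower in the NIL by −0.53 (limma adjusted p = 0.033), a call lost in 7 of the 19 fits that left out 1 array, where the adjusted p reached 0.083, and was not called in the RVLM (−0.43, limma adjusted p = 0.092), except without PVN array 3 or RVLM array 1 or 2 (−0.49 to −0.59, limma adjusted p = 0.023 to 0.044).

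Among TRP channels the NIL was high in Trpm3 and low in Trpv2. Trpm3, a heat- and steroid-activated channel, read 263, 320, 346, 289 and 315 in the NIL, 141, 118, 150, 111 and 96.4 in the PVN and 125, 101, 97.4 and 92.5 in the SON, higher in the NIL on every array (1.42, SE 0.140, limma adjusted p = 1.3e-08). Trpv2, a calcium-permeable channel that responds to cell stretch, read 12.3, 19.3, 14.2, 4.47 and 8.06 in the NIL, 56.9, 38.8, 45.6, 56.8 and 45.0 in the PVN and 41.1, 76.3, 45.7 and 41.2 in the SON. All NIL arrays were lower (−2.26, SE 0.273, limma adjusted p = 3.2e-07), and SHR RVLM, at 31.1 to 52.7, overlapped the hypothalamus (−0.10, SE 0.273, limma adjusted p = 0.77). The NIL readings of Trpv2 lay far below the NIL array medians of 41.0 to 45.1, so the size of that difference is not settled.

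Smaller NIL differences were those of Trpv5, an epithelial calcium channel (0.37, limma adjusted p = 0.0093), and Trpm7, a channel fused to a kinase (0.27, limma adjusted p = 0.023), whose call was lost without NIL array 1 or 4. In the RVLM, Trpm7 was higher by 0.63 (234 to 340 against 136 to 234, limma adjusted p = 1.5e-05), although its second probe set gave −0.01 (limma adjusted p = 0.96). Trpc1, a subunit of receptor-operated channels, was higher in the RVLM by 0.49 (limma adjusted p = 0.0015), and Trpm3 by 0.38 (limma adjusted p = 0.028), the last lost without SON array 4 or RVLM array 2, 3 or 4. Trpm1 was called in no comparison; its NIL difference was −0.47 (limma adjusted p = 0.067), and was called without NIL array 4 (−0.66, limma adjusted p = 0.011), without PVN array 3 (−0.53, limma adjusted p = 0.037) and with no intensity trend (limma adjusted p = 0.045).

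Trpc2, which carries the pheromone response of the vomeronasal organ, was called between the hypothalamic nuclei and in neither comparison with them. It read 51.2, 46.7, 47.1, 42.1 and 47.5 in the PVN and 26.9, 41.5, 22.8 and 13.0 in the SON, with no overlap (0.99, SE 0.267, limma adjusted p = 0.015). All SON readings lay below their array medians, so the size of this difference is not settled. Without SON array 4 the difference was 0.69 and its adjusted p 0.073. A second Trpc2 probe set, under the filter, averaged 28.4 in the PVN and 30.4 in the SON, so the direction rests on the chosen probe set. Trpc4, Trpc5, Trpc6, Trpm4, Trpm8, Trpv1, Trpv4 and Trpv6 were under the filter. Trpc4, a channel activated through phospholipase C, read 30.7 to 38.5 in the PVN and SON and 5.13 to 17.5 in the NIL, with no overlap, all below the array medians.

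**Figure D3:**
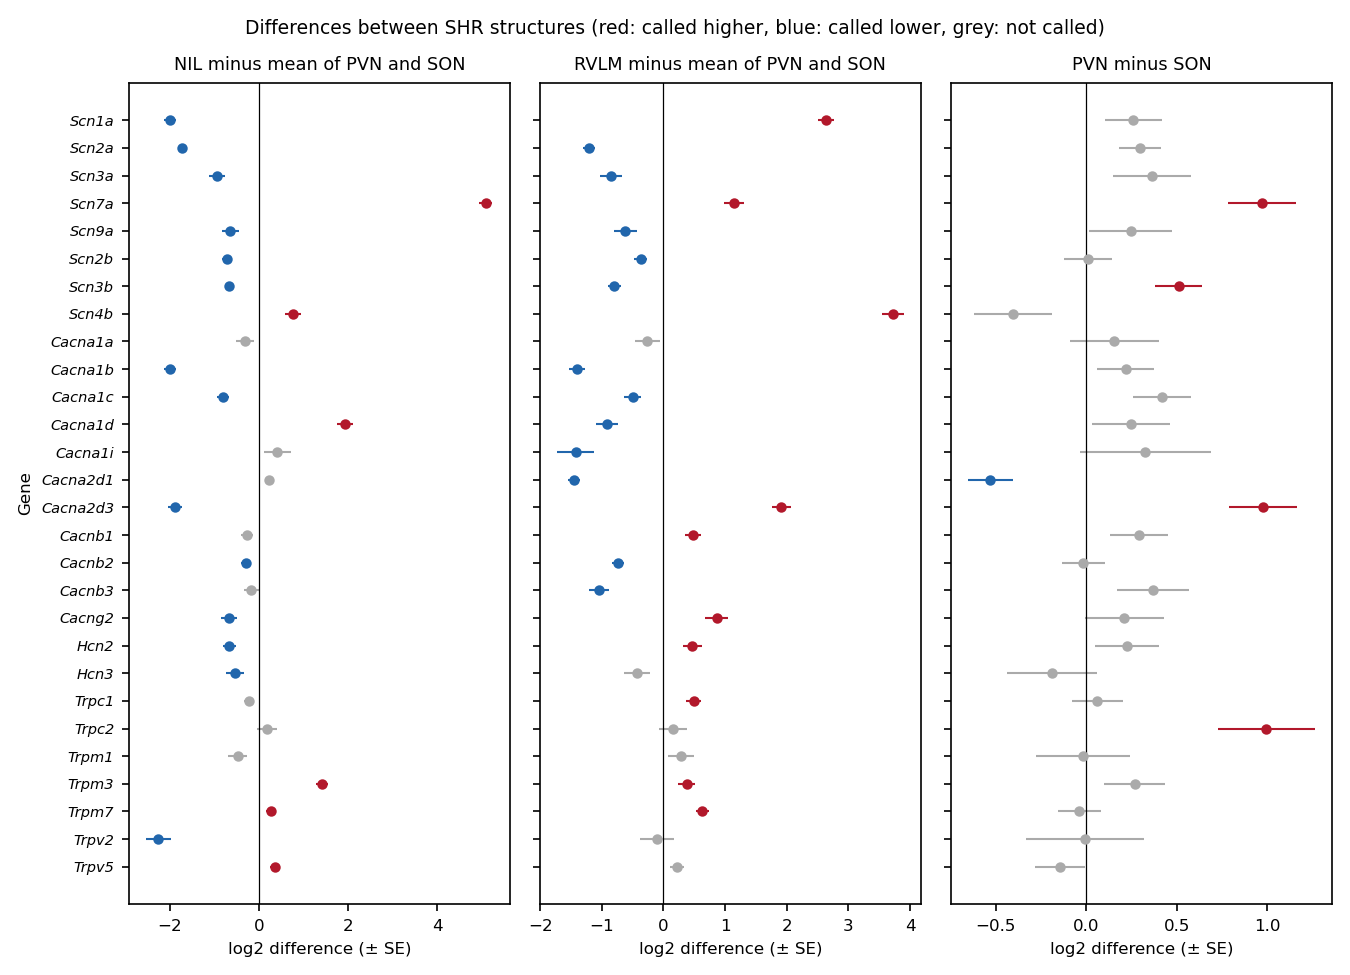
Log2 differences (points, with SE as bars) of the 28 tested channel genes, ordered by family, in the 3 comparisons between SHR structures; each panel has its own scale. Scn7a reaches 5.09 in the NIL panel and Scn4b 3.72 in the RVLM panel, and 5 genes are coloured as called between PVN and SON.

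Markers of cell types also differed between the structures, and their part in the channel differences was not tested. The 12 pan-neuronal markers summed to 4817 to 5382 in the NIL, 11066 to 12652 in the PVN and SON and 23500 to 27971 in SHR RVLM; 11 of the 12 were lower in the NIL, and in the RVLM 8 were higher and 1 lower. All 7 oligodendrocyte markers were lower in the NIL and higher in the RVLM, where they summed to 16791 to 21303 against 3856 to 10265 in the PVN and SON. Of 4 tested cholinergic and motor neuron markers 3 were higher in the RVLM. In bulk tissue, fewer cells of a type and less RNA per cell cannot be told apart.

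In the NIL, all 3 tested melanotroph markers and all 5 tested anterior pituitary markers were higher. The anterior pituitary sum was 11830, 16733, 5851, 5744 and 2947 on NIL arrays 1 to 5. All 6 tested astrocyte markers were lower in the NIL, with a median log2 difference of −2.81, and the 7 on the array summed to 3074 to 3704 there against 10369 to 16429 in the PVN and SON; in the RVLM 2 were higher and 1 lower. The 3 magnocellular markers were lower in the NIL (median −1.49) and in the RVLM (median −8.05). Of 6 endothelial markers 4 were higher and 2 lower in the NIL. Between PVN and SON, 5 of 7 meningeal and choroid plexus markers were lower and 1 was higher in the PVN. The 7 summed to 674 to 957 on 4 PVN arrays against 6581 to 9634 in the SON. Of 6 tested astrocyte markers, 3 were lower in the PVN.

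Genes that act with these channels were taken from lists made by function. Their counts are read against the 58.9% of all genes called in the NIL, 50.6% in the RVLM and 16.1% between PVN and SON. Of 10 tested partners of sodium channels and the axon initial segment, 8 were higher and none lower in the RVLM, led by the intracellular channel-binding factors Fgf13 (1.54, limma adjusted p = 2.5e-08) and Fgf12 (1.33, limma adjusted p = 1.3e-06). In the NIL 6 were lower, led by Fgf12 (−1.76) and Ank3 (−1.76), the ankyrin that anchors sodium channels, and 2 were higher, Nedd4l (1.47), a ubiquitin ligase that removes channels from the membrane, and Fgf14 (0.40). Between PVN and SON 3 were higher, led by Fgf13 (1.33) and Nedd4l (1.04), and Cntn1 was lower (−0.49). The 10 had a median of 0.65 in the RVLM and −0.86 in the NIL.

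Of 7 tested inhibitors and adaptors of calcium channels, 2 were higher in the NIL, Rem2 (2.68, limma adjusted p = 2.4e-06) and Gem (1.74, limma adjusted p = 7.5e-10), both small GTPases that reduce calcium current, and the other 5 were lower, led by the junction protein Jph3 (−2.35) and by Stac (−1.43). In the RVLM Bin1 (0.98) and Gem (0.47) were higher and Stac (−0.75) lower, and Stac was also lower in the PVN than in the SON (−0.68). Of 7 presynaptic partners, 3 were higher in the NIL, led by Rims2 (0.69) and Erc1 (0.36), and Rims3 was lower (−0.96). In the RVLM Cabp1, a calmodulin-like regulator, was higher by 2.49 (limma adjusted p = 1.7e-08) and Calm2 by 0.31, with 3 lower, led by Erc1 (−0.74) and Rims3 (−0.70). Between PVN and SON, Erc1 (0.59) and Rimbp2 (0.47) were higher.

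Intracellular and store-operated calcium channels numbered 13 tested genes, of which 9 were called in the NIL, 7 in the RVLM and 2 between PVN and SON, shares near those of all genes. In the NIL 6 were higher, led by the IP3 receptor Itpr1 (0.87) and Orai3 (0.79), and 3 lower, led by the ryanodine receptors Ryr2 (−2.17) and Ryr3 (−0.95). In the RVLM 3 were higher, led by Ryr2 (0.90) and Stim2 (0.70), and 4 lower, led by Itpr1 (−1.09) and Pkd2 (−0.79). Between PVN and SON, Orai2 (0.63) and Ryr2 (0.51) were higher. Of 9 sodium leak, acid-sensing and epithelial sodium channel genes, the leak channel subunits Unc79 (0.84) and Nalf1 (0.60) were higher and the acid-sensing Asic1 (−0.99) and Asic2 (−0.86) lower in the NIL; Nalf1 (0.62) was higher and 4 were lower in the RVLM, led by Asic4 (−0.99) and Unc80 (−0.76); and Nalf1 (0.97) and Asic2 (0.67) were higher in the PVN than in the SON. No HCN partner passed the filter in the SHR structures. The median differences in the NIL and RVLM were −0.79 and 0.05 for the inhibitors and adaptors, 0.30 and −0.23 for the presynaptic partners, −0.03 and −0.04 for the intracellular channels and −0.02 and −0.34 for the leak and acid-sensing group.

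In the RVLM of the 2 strains, no channel gene was called by limma: 0 of 31, with 1 at an unadjusted p under 0.05, where 1.41% of the 10400 genes tested were called, 0.548% higher and 0.865% lower in SHR. The differences ran from −0.39 to 0.51, with SEs from 0.0998 to 0.286, a median of 0.01 for the 31 and −0.03 for all genes. The 95% intervals of all 31 lay within a log2 difference of 1 in either direction, between −0.85 and 0.95, and those of 23 lay within 0.5.

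The smallest p was that of Trpm1, a channel of the retinal light response. It read 42.9, 45.9, 29.1, 31.9 and 24.5 in SHR and 22.4, 34.9, 24.8, 21.3 and 16.9 in WKY, with overlapping ranges (0.51, SE 0.212, 95% interval 0.058 to 0.95, limma adjusted p = 0.42). Every WKY reading lay below its array median, and Trpm1 read above the median on 2 of all 24 arrays, so the size is not settled. Trpm4, a calcium-activated cation channel, differed by −0.39 (SE 0.216, limma adjusted p = 0.62) and Cacna1a by −0.28 (SE 0.169, limma adjusted p = 0.65). Trpv5 differed by 0.19 (SE 0.110, limma adjusted p = 0.65) and Cacng2 by 0.18 (SE 0.127, limma adjusted p = 0.72).

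For 3 genes that were high in SHR RVLM the strain interval was −0.22 to 0.23 (Scn4b), −0.17 to 0.27 (Scn1a) and −0.21 to 0.23 (Cacna2d3) on the log2 scale. Scn4b, at 721, 788, 862, 890 and 933 in WKY, and Scn1a both spanned the SHR readings, and Cacna2d3 read 361, 332, 391, 396 and 445 in WKY against 374 to 407 in SHR. Of the partner lists, 1 gene was called between strains, the axonal adhesion molecule Nrcam, higher in SHR by 0.81 (SE 0.125, limma adjusted p = 0.0010; 248 against 138 on average). Nrcam was 1 of 10 tested genes of the sodium channel and initial segment list. The other lists, with 7, 6, 1, 12 and 9 tested, had none called, where 1.41% of all genes tested were called.

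**Figure D4:**
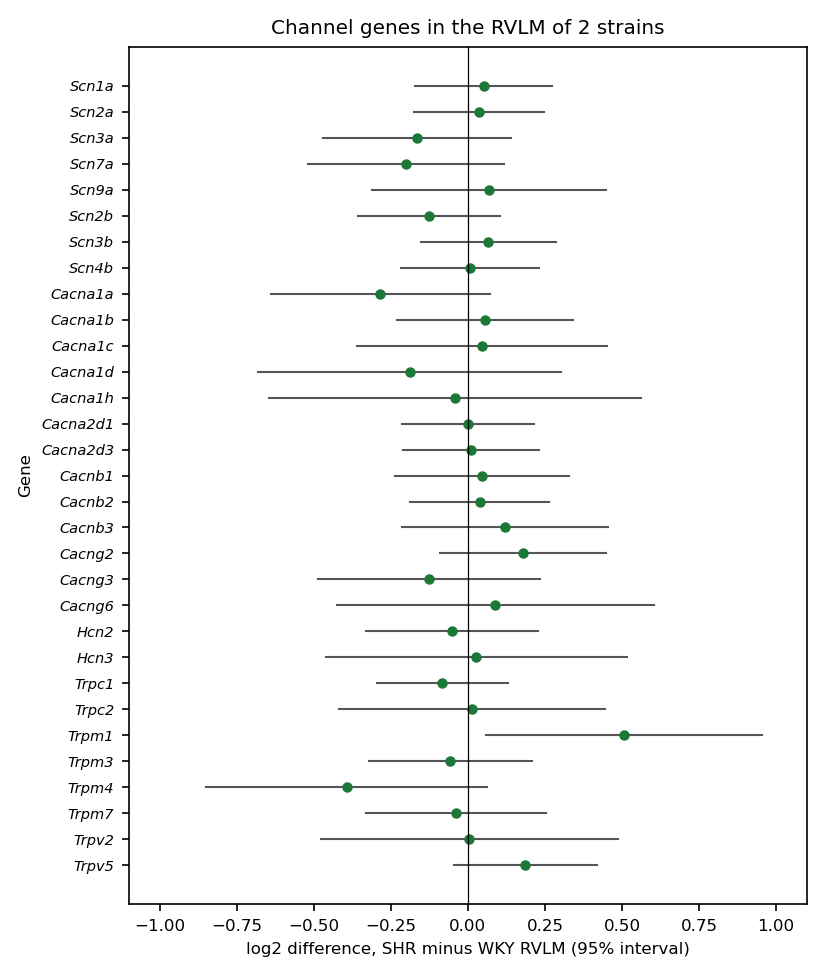
Log2 difference between SHR and WKY RVLM (points) with 95% intervals (bars) of the 31 tested channel genes, ordered by family. The intervals lie between −0.85 and 0.95, and Trpm1 is the gene whose interval does not cross 0.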

How the data were processed

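RNA of pooled male rats was hybridised to Affymetrix 230 2.0 arrays, 1 pool an array. Per the submitters' processing notes GCOS 1.2 was used; the sources used here name neither its algorithm nor its settings. The authors deposited intensity values on a linear scale for 31099 probe sets, with a 2% trimmed mean near 100 on every array. No detection calls were used. The 57 control probe sets were left out. Genes were named from the platform annotation: 20826 probe sets had 1 symbol, 436 several and 9780 none.

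Log2 intensities were shifted to a common array median, and probe sets with a mean above the 40th percentile of the arrays in a fit were tested with limma 3.58.1 (R 4.3.3; lmFit, eBayes with an intensity trend). All 19 SHR arrays entered 1 fit for the structures and 10 RVLM arrays the strain fit. Calls were made at a Benjamini-Hochberg adjusted p under 0.05 over all 18625 probe sets. The fit was tested on simulated data. Genes were named by subunit family: every called gene, those that complete a family, the 5 smallest p between strains and, from the partner lists, the 2 largest called in each direction. Alternatives covered scaling, pseudocount, filter, trend, replicate block, arrays fitted, probe set choice and each array left out. The members and lists were chosen with earlier results of these data known. Titles with no number were read as replicate 1, and the number of arrays limits the precision.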

Additional observations from a re-analysis of the deposited data

Results flagged for a closer look

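Of 147 sets of 4 or 5 readings of a tested gene in a group, 9 held a reading set far from the others by Dixon's test, which chance alone gives for about 1 in 20 sets. Of these, 4 were on PVN array 3: Scn3a read 249 (113 to 117 on the others), Cacng2 192 (76.3 to 87.4), Scn4b 117 (36.5 to 59.6) and Scn3b 588 (856 to 958). The Scn1a reading of PVN array 2 was 245 (160 to 182). SON array 2 was high for Cacna2d3 at 121 (65.5 to 71.3) and for Trpv2 at 76.3 (41.1 to 45.7). Low readings were those of Cacnb1 on NIL array 2, at 32.7 (42.4 to 46.1), and of Cacna1h on WKY RVLM array 4, at 19.3 (26.7 to 27.8). PVN array 3 also carried the meningeal and oligodendrocyte marker sums given with the array quality, and their part in these readings was not tested.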

How the results depend on the processing

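The counts of channel genes called stayed within 1.5 times their main value under every alternative run: 4 or 5 between PVN and SON, 16 to 26 in the NIL, 18 to 25 in the RVLM and 0 between strains, with 4 to 7, 19 to 23, 21 to 24 and 0 when 1 array was left out. The number tested changed with the filter, so stable counts are not stable shares. In the NIL, 16 of 19 were called with the filter at the 60th percentile (62.2% of all genes) and 26 of 54 with no filter (48.1%). In the RVLM these were 18 of 19 (54.8%) and 25 of 54 (40.8%). Between PVN and SON they were 4 of 19 (18.3%) and 5 of 54 (10.8%). One named gene changed direction, Cacnb1 in the RVLM with the mean of its probe sets (−0.63); the cause is the second probe set, which was lower. The call of Hcn3 in the NIL was also lost with values as deposited (limma adjusted p = 0.051), and with the replicate block (limma adjusted p = 0.054). Cacna2d1, Trpm1, Trpc1 and Cacna1a in the NIL and Hcn3 in the RVLM, not called here, were called under some alternatives, in the direction of the main difference. So were Cacnb1 in the NIL with the mean of its probe sets (−0.93, limma adjusted p = 1.4e-05) and Cacna1c between PVN and SON without RVLM array 3 (0.42, limma adjusted p = 0.035). Without PVN array 3, Scn2a and Scn4b were also called between PVN and SON. The replicate block gave 5, 19, 22 and 0 calls. Deviations of same-numbered arrays correlated between −0.119 and 0.166 over all pairs of groups, those of different strains included. The range was 0.079 to 0.166 for PVN with SON and −0.0296 to 0.132 for NIL with PVN. The labels name no pairing and the main fit used none, and whether same-numbered arrays share a source was not tested. Pools of 5 rats leave the spread between animals unmeasured, readings far below the array median have no settled order, and small differences such as those of Hcn3, Trpm7 and Cacnb2 sit close to the threshold.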

Other observations

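Some genes under the filter had readings that differed between structures. With no filter, limma called the differences listed here. Most readings lay below the array medians, where readings have no settled order, so they are given as values. In the NIL, Trpv4, an osmotically sensitive channel, read 12.7, 12.7, 10.0, 2.01 and 13.2 against 0.857 to 4.27 in the PVN and SON. Trpm4 read 31.6 to 47.2 against 4.18 to 30.4, with no overlap. Cacng6 read 31.8 to 43.2 in the NIL against 6.12 to 35.7, and Cacna1e, the R-type calcium channel pore, 4.30 to 31.1 against 2.59 to 14.3. Without PVN array 3, Cacng6 passed the filter. It was then called higher in the NIL (0.70, limma adjusted p = 0.0072) and in the RVLM (0.53, limma adjusted p = 0.041). In SHR RVLM, Trpv6 read 7.23 to 22.6 against 16.1 to 35.3 in the PVN and SON, and Trpc4 10.5 to 24.9 against 30.7 to 38.5. Scn11a went the other way, at 6.18 to 14.7 in SHR RVLM against 1.72 to 3.99 in the PVN and 1.11 to 12.3 in the SON.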
